A study of Rattus norvegicus with 16 samples.

Results

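The protein-protected sites (PPS) described here were found in NMDA-treated rat neurons with a single-strand-specific RNase alone or with a double-strand-specific RNase alone. Members were the PPS of the 2 NMDA lists that lay on the plus strands of chromosomes 11, 12, 16, 17, 18, 19 and 20 and whose peaks all carried 1 RNase in their names. This gave 16244 of the 166170 PPS in both NMDA lists, of which 4579 were ssRNase-only and 11665 dsRNase-only. A further 2468 PPS on the same strands held peaks of both RNases and were not members. Every member consisted of a single peak. The 7 strands were used because, in an earlier pass over these lists, blocks of peaks elsewhere were copied between lists or followed the opposite strand. On the 7 strands at most 0.204% of the smaller of 2 sets from different lists matched the other in position and score, over 24 pairs of sets. Matched by position alone, the highest share was 0.708%. A block moved whole between lists on its own strand would be seen by neither check.

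Protein interaction profile sequencing (PIP-seq) reads out where protein shields RNA. Crosslinked RNA is cut by an RNase either with its proteins in place or after they are digested, and a stretch that survives only with protein present is a PPS. RNase ONE, the ssRNase, cuts unpaired RNA, and RNase V1, the dsRNase, cuts base-paired RNA, so an ssRNase-only PPS lies in RNA that became open to the single-strand cutter once protein was gone, and a dsRNase-only PPS in RNA that became open to the cutter of paired RNA. Many RNA-binding proteins of neurons recognise unpaired motifs, and others, such as the Staufen and ADAR proteins, bind paired RNA.

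The cells were cultured primary neurons of the cortex of Sprague–Dawley rats at embryonic day 18. They received either 10 µM NMDA (N-methyl-D-aspartate), which activates a class of glutamate receptors and in excess causes excitotoxic injury, or no treatment as control. The labels give 15 or 21 days in vitro and 4 or 24 hours of treatment without saying which applies, and their extraction text speaks of nuclei, so whether the RNA was nuclear or whole-cell is not settled. Each treatment had 2 PPS lists, replicates 2 and 3, and each list joined the libraries of 1 replicate. Separate cultures are not stated for the replicates, and p-values then measure only the spread between these lists, which may be technical. A set below is the PPS of 1 RNase in 1 list, n is 2 lists per RNase, and 0.333 is the lowest p an exact two-sided permutation test can reach. Read numbers do not accompany the lists, so depth is unknown.

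Before any comparison, the RNase labels were set against the placement of PPS. In 615 windows of 100 kb with at least 16 PPS over the 8 NMDA and control sets, each NMDA set correlated more strongly with every set of its own RNase in the other 3 lists than with any set of the other RNase there. For ssRNase of NMDA replicate 2 the Pearson correlations of log2 window values were 0.41 to 0.48 with the same RNase and 0.04 to 0.13 with the other. For ssRNase of NMDA replicate 3 they were 0.48 to 0.60 and 0.15 to 0.34. For dsRNase they were 0.48 to 0.55 against 0.24 to 0.34 in replicate 2, and 0.44 to 0.50 against 0.03 to 0.07 in replicate 3. These are descriptions over windows that share the same lists.

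dsRNase-only PPS outnumbered ssRNase-only PPS in both NMDA lists, but by very different factors. NMDA replicate 2 held 1043 ssRNase-only and 7256 dsRNase-only PPS, a ratio of dsRNase to ssRNase of 6.96. NMDA replicate 3 held 3536 and 4409, a ratio of 1.25. The means were 2290 ± 1763 for ssRNase and 5833 ± 2013 for dsRNase (SD, n = 2, exact permutation p = 0.333). The sets did not overlap, since the lowest dsRNase number lay above the highest ssRNase number.

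The control lists had the same direction with less spread. They held 3247 and 3483 ssRNase-only PPS against 4346 and 4816 dsRNase-only PPS, ratios of 1.34 and 1.38. NMDA replicate 2 was thus the list that stood apart, with fewer ssRNase-only and more dsRNase-only PPS than any other list. The log2 ratio of ssRNase to dsRNase numbers was -2.80 and -0.32 in NMDA and -0.42 and -0.47 in control, and the groups overlapped. The difference of the means was -1.11 (exact permutation p = 1, n = 2 lists per group), and without NMDA replicate 2 it was +0.13.

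The imbalance of NMDA replicate 2 was stronger on these strands than on most of its other plus strands. ssRNase-only PPS made up 9.39% to 15.5% of the PPS of a single RNase on the 7 strands of that list. On the plus strands of the other 13 autosomes the range was 10.5% to 45.5% with a median of 36.5%, and 11 of the 13 lay above the highest of the 7. In NMDA replicate 3 the 7 strands had 34.5% to 56.9% and the other 13 had 49.0% to 80.2%. The part that block copying on those other strands plays in this was not tested.

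**Figure D1:**
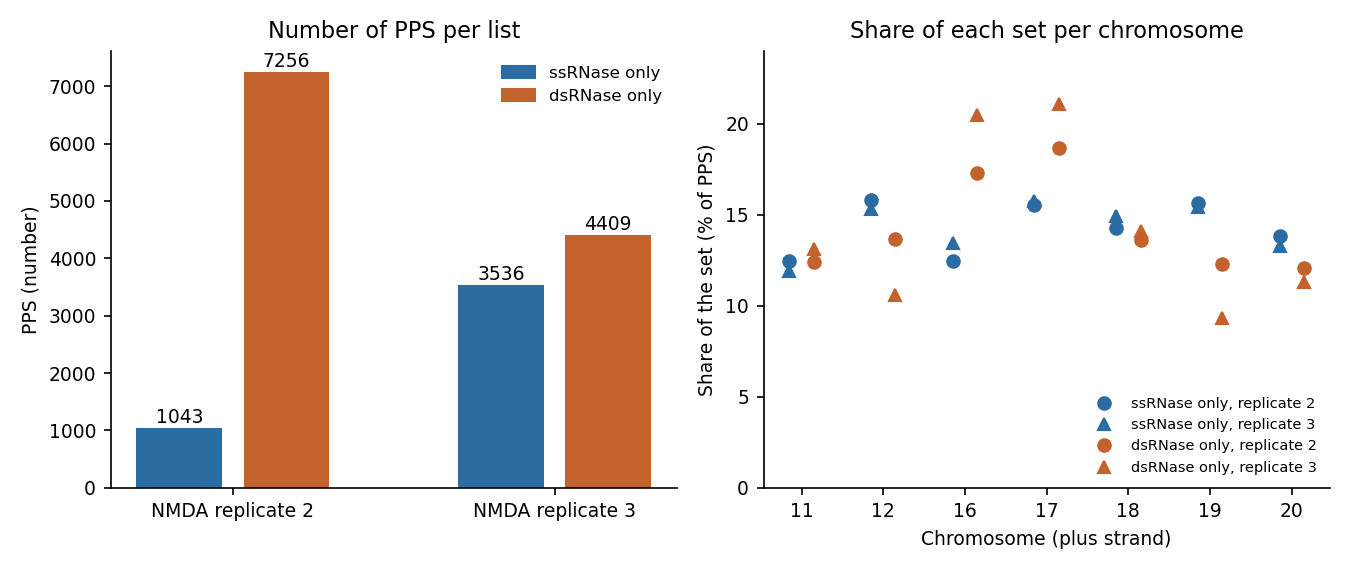
Left, bars give the number of ssRNase-only and dsRNase-only PPS in each NMDA list, from 1043 to 7256. Right, points give the share of each set on each chromosome in percent, by RNase and replicate; both dsRNase sets lie above both ssRNase sets on chromosomes 16 and 17, and below them on chromosomes 12 and 19.

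In covered sequence the direction depended on the list. ssRNase-only PPS covered 54211 bp in replicate 2 and 245113 bp in replicate 3. dsRNase-only PPS covered 369602 and 187140 bp. In replicate 3 the ssRNase-only PPS were therefore fewer yet covered more sequence, and the RNases did not separate (exact permutation p = 0.667, n = 2).

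ssRNase-only PPS were the longer class in both lists. Their median length was 51 bp in replicate 2 and 63 bp in replicate 3, against 49 and 40 bp for dsRNase-only PPS. The difference within a list was 2 bp in replicate 2 and 23 bp in replicate 3, a mean of 12.5 bp. Over every chromosome strand of these lists, copied blocks included, the mean difference was 2 bp and the medians of the RNases did not separate. The ssRNase medians averaged 57.0 ± 8.49 bp and the dsRNase medians 44.5 ± 6.36 bp (SD, n = 2, exact permutation p = 0.333). With the pairs kept within lists the exact sign-flip permutation p was 0.5, the smallest that 2 lists allow. The ssRNase median was higher on 6 of 7 chromosomes in replicate 2, where chromosome 12 had 50 bp for both, and on 7 of 7 in replicate 3, where the ssRNase medians of 60 to 66 bp all lay above the dsRNase medians of 38 to 41 bp.

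Both control lists also had longer ssRNase-only PPS, with medians of 57 and 54 bp against 50 and 40 bp. The gap of 7 and 14 bp in control lay between the gaps of the NMDA lists. The difference between treatments was 2 bp (exact permutation p = 1, n = 2 lists per group). It was -8.5 bp without NMDA replicate 3 and -1.5 bp without control replicate 2.

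The long tail of the distribution did not follow the medians in every list. PPS of at least 100 bp made up 1.73% of ssRNase-only PPS in NMDA replicate 2 and 15.8% in replicate 3. Among dsRNase-only PPS the shares were 4.00% and 0.953%. In replicate 2 the dsRNase class thus held the larger share of long PPS, and in replicate 3 the ssRNase class did (exact permutation p = 0.667, n = 2). In both control lists the ssRNase class had more, with 9.39% and 6.72% against 3.43% and 1.08%. Sequencing reads were 50 bases long, and 52.6% and 70.1% of ssRNase-only PPS in the NMDA lists were longer than that, against 44.3% and 23.8% of dsRNase-only PPS.

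**Figure D2:**
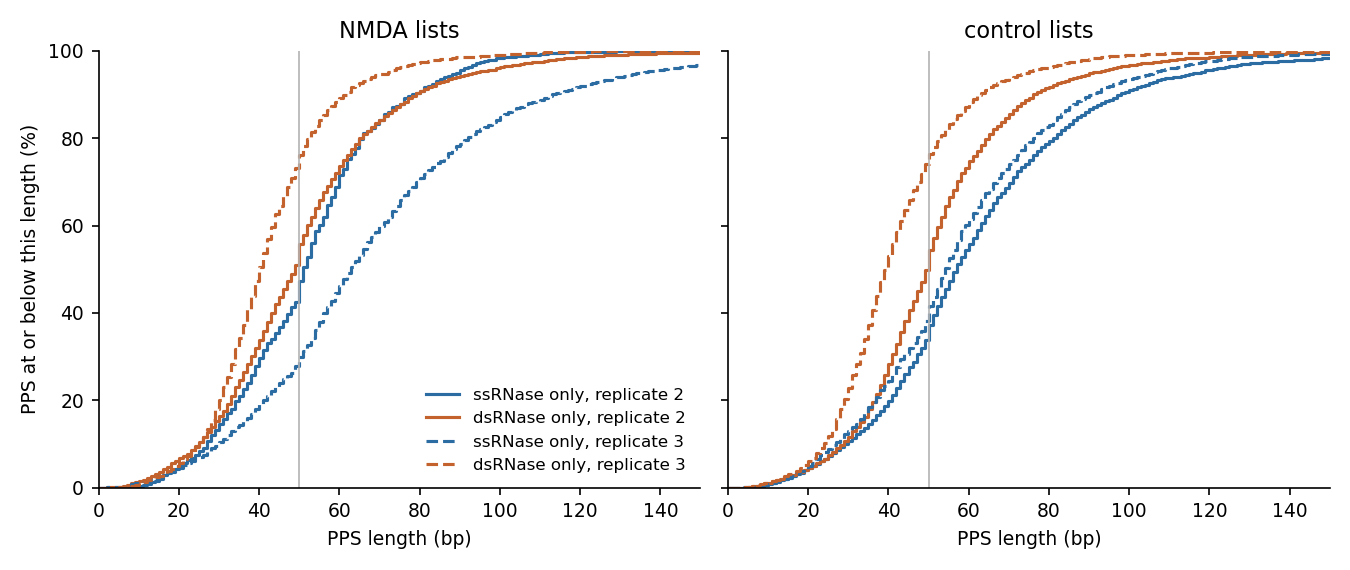
Cumulative share of PPS (percent) against PPS length (bp) for each set, NMDA lists on the left and control lists on the right, with the grey line at the read length of 50 bases. The replicate 3 curves of the NMDA lists lie far apart (medians 63 and 40 bp), whereas those of replicate 2 nearly coincide (51 and 49 bp).

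The deposited score took few values, and its steps differed between sets. In dsRNase-only PPS of NMDA replicate 2 and ssRNase-only PPS of NMDA replicate 3, the steps 5.61, 7.43, 9.39, 11.49, 13.7 and 16.01 held 83.5% and 85.5% of PPS. Those steps held 0% of the other NMDA sets and of all 4 control sets. In ssRNase-only PPS of NMDA replicate 2 and dsRNase-only PPS of NMDA replicate 3, the steps 5.4, 6.82, 8.35 and 9.98 held 63.1% and 78.6%, against 3.97% and 4.47% in the first pair. In control they held 55.7% to 77.9%. The score scale therefore crossed between RNases in the NMDA lists. Within each RNase, the NMDA set on the first series also held more PPS, 7256 against 4409 for dsRNase and 3536 against 1043 for ssRNase. Its median length was the greater as well, 49 against 40 bp and 63 against 51 bp. The part of the score scale in the comparisons of number, covered sequence and length above, and in those below, was not tested.

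**Figure D3:**
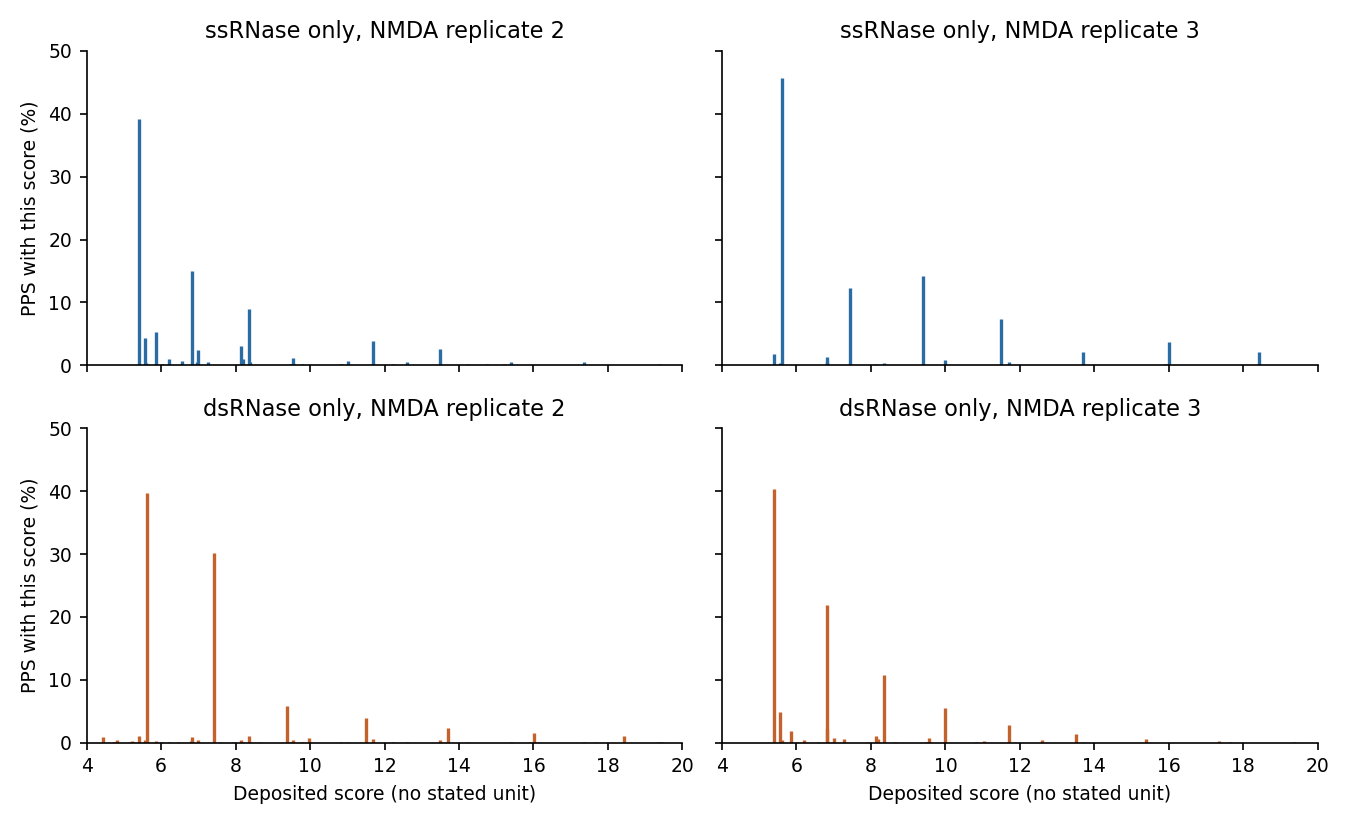
Share of PPS (percent) at each deposited score up to 20, for the ssRNase-only (top) and dsRNase-only (bottom) PPS of NMDA replicates 2 (left) and 3 (right). The commonest score is 5.61 in replicate 2 dsRNase and replicate 3 ssRNase, and 5.4 in the other sets.

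With that limit, scores did not separate the RNases. Median scores were 6.21 and 6.82 for ssRNase-only PPS and 7.43 and 6.81 for dsRNase-only PPS. The difference was -1.22 in replicate 2 and 0.01 in replicate 3 (mean -0.605, exact permutation p = 0.667, n = 2). The share of PPS above the commonest score of their set, a measure less tied to the scale, was 60.9% and 52.1% for ssRNase and 56.6% and 59.7% for dsRNase. It too differed in direction between the lists (exact permutation p = 1, n = 2). Longer PPS had higher scores in every NMDA set, with Spearman correlations over PPS of 0.27 to 0.36. Median lengths at the commonest score were 48 and 57 bp for ssRNase and 43 and 37 bp for dsRNase, so the ssRNase class was the longer one there as well.

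In these lists the shares of the RNases lay apart on most chromosomes. On 6 of the 7 (85.7%) the 2 ssRNase shares did not overlap the 2 dsRNase shares. Without any difference, 2 values against 2 lie apart with a probability of 0.333. The 7 shares of a set make up its whole, so larger shares on some chromosomes lower the others, and the 7 are not independent. Chromosome 16 held 12.5% and 13.4% of ssRNase-only PPS against 17.3% and 20.5% of dsRNase-only PPS. Chromosome 17 held 15.5% and 15.7% against 18.7% and 21.1%. Chromosomes 12, 18, 19 and 20 had larger ssRNase shares. The widest of these gaps was on chromosome 19, with 15.6% and 15.4% of ssRNase-only PPS against 12.3% and 9.34% of dsRNase-only PPS. The narrowest was on chromosome 18, with 14.3% and 14.9% against 13.6% and 14.1%. Each exact permutation p was 0.333 on these 6 (adjusted 0.389 over the 7, n = 2). In control the direction was the same without overlap on chromosomes 12, 16, 17 and 19, and the sets overlapped on 18 and 20.

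On chromosome 17 the difference lay in a few windows. 4 adjoining windows from 75300001 to 75700000 (rn6) held 338 of 1354 dsRNase-only PPS of that chromosome in replicate 2 and 330 of 929 in replicate 3. They held 15 of 162 and 62 of 556 ssRNase-only PPS. Without them the chromosome's share was 14.3% and 14.2% for ssRNase and 14.7% for dsRNase in both lists. The 5 windows richest in dsRNase-only PPS, these 4 and 1 on chromosome 11, held 5.402% and 8.64% of dsRNase-only PPS and 1.82% and 2.26% of ssRNase-only PPS. They were picked for their dsRNase values, so this is a description.

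The share of PPS in the richest windows depended on how many windows were counted. The 10 richest windows of each set held 7.77% and 6.62% of ssRNase-only PPS and 8.93% and 13.0% of dsRNase-only PPS. The 50 richest held 26.4% and 23.8% of ssRNase-only PPS against 24.3% and 30.9% of dsRNase-only PPS, so the direction there differed between the lists. With each set thinned at random to 1043 PPS the values for the 10 richest were 7.77% and 7.86% against 9.59% and 13.8%, and the sets then occupied 530 and 536 windows against 551 and 511. In the thinned sets the median distance to the next PPS of the same class was 5321 and 7089 bp for ssRNase and 11110 and 8955 bp for dsRNase. Neighbours within 1000 bp were found for 30.0% and 26.8% of ssRNase-only PPS and for 17.5% and 16.9% of dsRNase-only PPS. Before thinning the median distances were 5321 and 930.5 bp for ssRNase and 526 and 1575 bp for dsRNase, so the direction differed between the lists. The ssRNase set of replicate 2 lost no PPS to thinning and the dsRNase sets lost the most. The part of this loss in the thinned distances was not tested.

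Window by window, no difference passed the threshold across 620 windows with at least 8 PPS over the 4 sets. limma on log2 PPS per 10000 PPS of the set called 0 windows (0%) at an adjusted p under 0.05, with a smallest adjusted p of 0.105. At an unadjusted p under 0.05 there were 120 windows (19.4%), 44 with more ssRNase-only and 76 with more dsRNase-only PPS. The filter sums raw PPS, most of which were dsRNase-only, and some windows passed it on dsRNase-only PPS alone. Of the 620 windows, 258 and 53 were at 0 in the ssRNase sets of replicates 2 and 3, against 2 and 37 in the dsRNase sets. The part of the filter in the split by direction, here and in the fits below, was not tested. Because each list's ssRNase and dsRNase PPS come from the same replicate, the list was also fitted as a replicate block. limma then called 25 windows (4.03%), 9 higher in ssRNase (1.45%) and 16 higher in dsRNase (2.58%). That fit left 1 residual degree of freedom per window, and its estimated prior degrees of freedom were infinite, against 8.49 without the block, so its p-values rest on the spread shared over windows. Of the 10 named windows it called, 5 had a larger standard error than without the block and 5 a smaller one. The calls therefore do not show that pairing reduced the spread. With the spread estimated over the 8 NMDA and control sets it called 17 (2.74%), 4 and 13. Values of the RNases did not overlap in 177 windows with ssRNase higher (28.5%) and 168 with dsRNase higher (27.1%).

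Of the 16 windows higher in dsRNase with the block, 7 lay on chromosome 17, which held 15.2% of the 620 windows tested, and 6 on chromosome 16, which held 16.3%. The 9 higher in ssRNase lay on chromosomes 12, 16, 18, 19 and 20, with 1 or 2 on each. The placement was not tested. ssRNase-only PPS of replicate 2 numbered 0 in 9 of the 16. In that set 258 of the 620 windows (41.6%) were at 0 and 1 PPS was worth 9.59 per 10000, so single windows were poorly resolved there. In the control lists, which took no part in the calls, values lay in the same direction without overlap in 9 of the 9 and 14 of the 16 windows. Over all 620 windows that was so for 26.6% (ssRNase higher) and 29% (dsRNase higher).

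**Figure D4:**
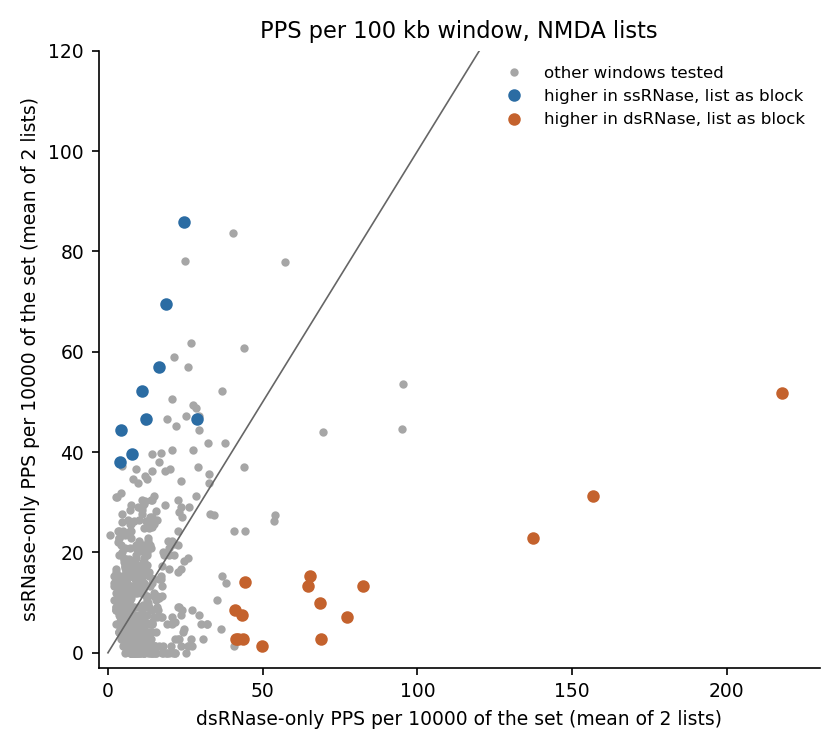
Each point is 1 of 620 windows of 100 kb, placed by its mean dsRNase-only (x axis) and ssRNase-only (y axis) PPS per 10000 PPS of the set over both NMDA lists, with the line at equality. Coloured points are the 25 windows called by limma with the list as block, 9 above and 16 below the line, and the points farthest right are the dense windows of chromosome 17.

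Among the windows with most dsRNase-only PPS, chromosome 17 from 75300001 to 75400000 held 120 and 119 dsRNase-only PPS against 4 and 23 ssRNase-only PPS. Per 10000 PPS of the set this was 165 and 270 against 38.4 and 65.0. The log2 difference, ssRNase minus dsRNase, was -2.07 with a standard error of 0.68 (limma adjusted p = 0.106, and 0.00459 with the list as block). The next windows, from 75400001 and from 75500001, held 89 and 84 against 3 and 12, and 81 and 72 against 3 and 6. Their log2 differences were -2.27 and -2.58, both with limma adjusted p = 0.105 and, with the block, 0.000914 and 0.000121. The window from 75600001 was less one-sided, with 48 and 55 dsRNase-only against 5 and 21 ssRNase-only PPS, a log2 difference of -0.76 and limma adjusted p = 0.497. The same 4 windows held more dsRNase-only than ssRNase-only PPS in both control lists, for example 87 and 69 against 9 and 9 in the first.

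Further windows with the smallest p on the dsRNase side lay elsewhere. On chromosome 16, 77200001 to 77300000 held 47 and 44 dsRNase-only PPS against 1 and 6 ssRNase-only PPS, a log2 difference of -2.61 ± 0.53 (SE, limma adjusted p = 0.105, with the block 0.000374). Chromosome 17 from 63500001 to 63600000 held 34 and 40 against 0 and 2, a log2 difference of -5.23 ± 1.14 on the scale with the pseudocount of 0.5 (SE, limma adjusted p = 0.105, with the block 0.000203). In control that window held 11 and 12 dsRNase-only against 1 and 2 ssRNase-only PPS. The window on chromosome 11 from 34600001 to 34700000 held 54 and 51 dsRNase-only PPS against 4 and 18 ssRNase-only PPS, a log2 difference of -1.06 (limma adjusted p = 0.36).

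Windows on the ssRNase side were poorer in PPS. The richest was chromosome 18 from 27100001 to 27200000, with 12 and 20 ssRNase-only PPS against 26 and 6 dsRNase-only PPS. Per 10000 this was 115 and 56.6 against 35.8 and 13.6, a log2 difference of 1.84 ± 0.62 (SE, limma adjusted p = 0.116, with the block 0.020). Chromosome 16 from 48200001 to 48300000 held 8 and 22 against 14 and 8 PPS, or 76.7 and 62.2 against 19.3 and 18.1 per 10000, a log2 difference of 1.86 ± 0.49 (SE, limma adjusted p = 0.105, with the block 0.024). The raw numbers of replicate 2 favour dsRNase in both windows, and the scaled values favour ssRNase because the set is small.

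The other rich ssRNase windows were less clear. Chromosome 19 from 25000001 to 25100000 held 8 and 32 ssRNase-only PPS against 29 and 18 (log2 difference 1.04, limma adjusted p = 0.337). Chromosome 11 from 87900001 to 88000000 held 11 and 18 against 23 and 8 (1.59, limma adjusted p = 0.148). On chromosome 20, 28000001 to 28100000 held 8 and 28 against 27 and 34 (0.54, limma adjusted p = 0.601), and its scaled ssRNase and dsRNase values overlapped. In the next tier, the 3 ssRNase windows of smallest p were chromosome 12 from 15900001 to 16000000, with 6 and 11 against 3 and 2 PPS, chromosome 19 from 25100001 to 25200000, with 5 and 10 against 4 and 1, and chromosome 12 from 47100001 to 47200000, with 5 and 20 against 11 and 3. Their log2 differences were 3.15, 3.19 and 2.30, each with limma adjusted p = 0.105 and with the block 0.00935, 0.0254 and 0.0118.

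The contrast between RNases was not shown to differ between NMDA and control in any window. The limma interaction called 0 of 615 windows (0%), with 25 (4.07%) at an unadjusted p under 0.05. For the window of chromosome 17 from 63500001 the interaction was -2.79 ± 1.51 (SE, limma adjusted p = 0.845), so the interval is wide and equality is not shown either.

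Which RNase's PPS were found again more often depended on the list and on the measure. Of the 1043 in replicate 2, 415 (39.8%) shared at least 1 bp with an ssRNase-only PPS of replicate 3, and 420 of the 3536 in replicate 3 (11.9%) were met in return. For dsRNase the shares were 956 of 7256 (13.2%) and 968 of 4409 (22.0%). The ssRNase share was thus the higher one in replicate 2 and the lower one in replicate 3. If each PPS met at most 1 other, the sizes of the sets would limit the share to 29.5% for ssRNase of replicate 3 and to 60.8% for dsRNase of replicate 2. The smaller set of each RNase has no such limit. Its share was 39.8% for ssRNase, against 3536 targets, and 22.0% for dsRNase, against 7256 targets. Overlapping pairs per 1000000 possible pairs came to 116 for ssRNase with ssRNase and 30.6 for dsRNase with dsRNase. This measure falls with set size even where every PPS is found again, and 1-to-1 overlap would give at most 283 and 138. Scaled also to 100 bp of summed mean length the values were 95.9 and 32.8. With all sets thinned to 1043 PPS, ssRNase-only PPS overlapped at 11.9% and 11.8% and dsRNase-only PPS at 3.64%, values that carry the same dependence since the dsRNase sets lost more PPS. In control, where the sets were closer in size, 23.8% and 22.1% of ssRNase-only PPS and 20.5% and 18.7% of dsRNase-only PPS were met. Only 1 pair of lists exists per RNase and treatment, so no test was made.

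Overlap between different RNases was uneven. dsRNase-only PPS of replicate 2 met ssRNase-only PPS of replicate 3 at 37.4 pairs per 1000000, above the 30.6 for dsRNase with dsRNase. After scaling for length they were 31.1 and 32.8. ssRNase-only PPS of replicate 2 met dsRNase-only PPS of replicate 3 at 15.7. The sets at 37.4 are those that shared the first series of scores. In control both crossed values, 22.7 and 26.6, lay below both same-RNase values.

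**Figure D5:**
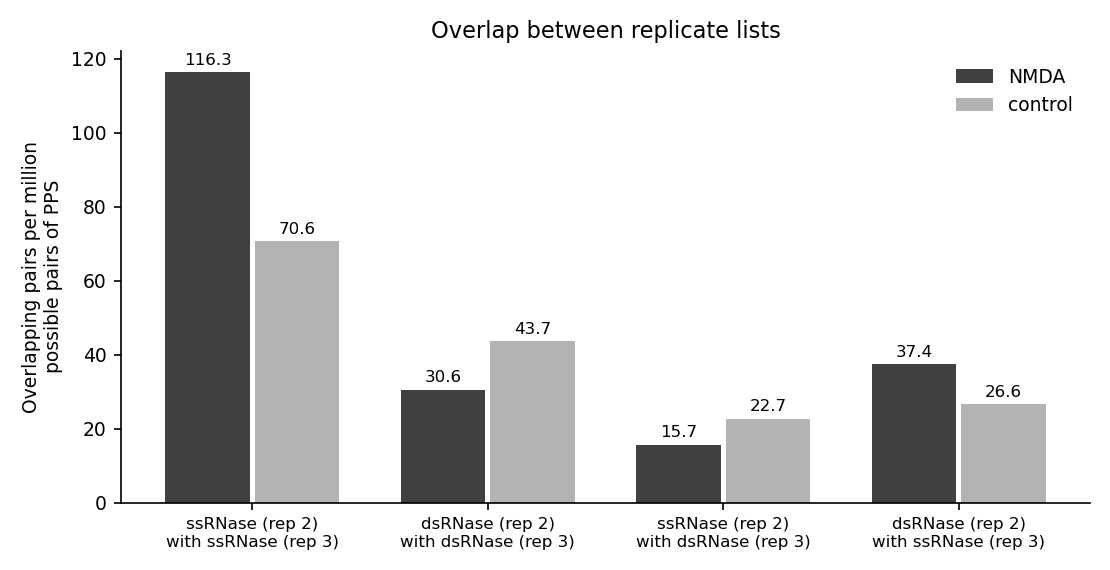
Bars give overlapping pairs per 1000000 possible pairs of PPS between replicate 2 and replicate 3, for each combination of RNases, in NMDA and control lists. In NMDA the ssRNase bar (116.3) is the highest and the bar for dsRNase of replicate 2 with ssRNase of replicate 3 (37.4) lies above the dsRNase bar (30.6).

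Many members had no counterpart at all. Counting PPS of any kind in the other NMDA list, 425 of 1043 ssRNase-only PPS of replicate 2 (40.7%) and 1945 of 3536 of replicate 3 (55.0%) met none. Among dsRNase-only PPS this was 4371 of 7256 (60.2%) and 3264 of 4409 (74.0%). In replicate 2, 14.0% of ssRNase-only and 14.6% of dsRNase-only PPS met a PPS with peaks of both RNases in replicate 3. In the other direction it was 10.1% and 2.49%.

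PPS above the median score of their set were found again more often in all 4 sets. So were PPS above the median length, for example 13.8% against 10.0% in ssRNase of replicate 3. Score and length were not separated. ssRNase-only PPS of replicate 2 were met at 33.3% at or below their median score and at 46.6% above it, and those of replicate 3 at 10.1% and 13.7%. dsRNase-only PPS were met at 11.98% and 16.99% in replicate 2 and at 18.9% and 25.1% in replicate 3. Where PPS overlapped, the median shared stretch was 41 bp over 429 ssRNase pairs and 33 bp over 979 dsRNase pairs, and the median share of the shorter PPS was 100% for both. Pairs identical at both ends were rare, 4 and 5. The start alone or with the end was shared by 13.3% of ssRNase and 7.46% of dsRNase pairs, and the end by 12.6% and 12.5%.

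Joining overlapping PPS and leaving out those with a peak of the other RNase in either NMDA list left 360 replicated ssRNase sites and 903 replicated dsRNase sites. Their median lengths were 79 and 61 bp. Control replicates 2 and 3 held a PPS of the same RNase alone at 46.7% and 39.7% of the ssRNase sites and at 39.9% and 27.4% of the dsRNase sites. For single PPS of the NMDA lists, replicated or not, these shares were lower, 25.5% to 31.4% for ssRNase and 17.1% to 24.5% for dsRNase. Both control lists held the same RNase alone at 77 ssRNase sites (21.4%) and 121 dsRNase sites (13.4%). No PPS of either control list lay at 76 ssRNase sites (21.1%) and 299 dsRNase sites (33.1%). Sites are longer than single PPS and ssRNase sites longer than dsRNase sites, and the part of length in these shares was not tested.

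The replicated ssRNase site with the highest score in its lower list lay on chromosome 18 from 31409771 to 31409834 (64 bp, scores 15.39 and 20.91). Control replicate 3 held an ssRNase-only PPS there and control replicate 2 none. Chromosome 11 had 3 of the 5 highest. These were 34693544 to 34693700 (157 bp, 15.21 and 18.42), 87890011 to 87890048 (38 bp, 14.76 and 18.42), which neither control list held, and 31816848 to 31816949 (102 bp, 13.5 and 18.42). The last of the 5 lay on chromosome 19 from 14733755 to 14733823 (69 bp, 14.76 and 26.12). The first of the 3 on chromosome 11 lies within the dense dsRNase window described above.

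The longest replicated ssRNase sites had 249, 226 and 209 bp. They lay on chromosome 11 from 31813019 to 31813267, chromosome 16 from 48232436 to 48232661 and chromosome 19 from 24797557 to 24797765. The length came mostly from 1 list in the first, where the PPS had 42 bp in replicate 2 and 234 bp in replicate 3. At the last, both control lists also held peaks of dsRNase. Control replicate 3 held a dsRNase-only PPS beside an ssRNase-only PPS at the site on chromosome 16. The site on chromosome 16 is in the rich ssRNase window named above.

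Among replicated dsRNase sites the highest lower score was 17.35, reached on chromosome 18 from 16511455 to 16511545 (91 bp) and chromosome 20 from 44436698 to 44436772 (75 bp). Both control lists held the second as dsRNase-only, and control replicate 2 alone held the first. Next came chromosome 17 from 82091504 to 82091550 (47 bp, 16.01 and 15.39), where control replicate 3 held an ssRNase-only PPS. Chromosome 12 from 30440977 to 30441089 (113 bp) and chromosome 16 from 77216116 to 77216238 (123 bp) both had a lower score of 13.7, and the latter is in the dense window of chromosome 16. The longest were 212 bp on chromosome 12 from 50456226 to 50456437, 180 bp on chromosome 18 from 29598831 to 29599010 and 173 bp on chromosome 12 from 50455221 to 50455393. The sites on chromosome 12 lie close together, and all 3 carried dsRNase PPS in control replicate 2.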

How the data were processed

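Per the labels, RNA of each replicate was digested with either RNase with and without protein, and PPS carry the name CSAR at a false discovery rate of 5%. Per the submitters' processing notes, cutadapt 1.2.1, TopHat2 2.0.10 and rn6 were used, in no stated role. The authors' deposited score, 1 per peak, has no stated scale and only describes or filters PPS. Members and lists were chosen with earlier results of these data known. No rn6 annotation or sequence was used, so no gene is named.

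Exact two-sided permutation tests of the sets were run in Python 3.11.15 with numpy 2.4.6. Midpoints were assigned to 100000 bp windows, and log2(PPS per 10000 + 0.5) was the response in limma 3.58.1 (R 4.3.3, lmFit and eBayes with trend, Benjamini-Hochberg). The code was first run on simulated windows with sets larger than the real ones and without the block. Those runs do not show how the fits behave in sets as sparse as these. A larger pseudocount draws a fold toward 0, but a set at 0 PPS can still give a sparse window a large fold. The named window with 0 ssRNase-only PPS in NMDA replicate 2, on chromosome 17, had a log2 difference of -5.23. It was -6.43 with pseudocount 0.1 and -4.68 with pseudocount 1. Without ssRNase replicate 2 it was -3.42, and without ssRNase replicate 3 it was -7.04. Pairing came from the protocol, by which each sample gave its 4 libraries. Deviations of same-numbered sets correlated at -0.0997 over 620 windows.

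Named windows were, with fewer than 3 past the threshold, the 3 per direction with the smallest unadjusted p and no overlap, plus the 5 richest per RNase. Named sites were the 5 per RNase with the highest lower score and the 3 longest. Alternatives covered membership, score, length, strands, thinning, window size, pseudocount, filter, centring, variance model, block, overlap rule and leaving out each list.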

Additional observations from a re-analysis of the deposited data

How the results depend on the processing

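The direction of the numbers, of median length and of the mean overlap (ssRNase higher) was the same under every alternative run for them. On every chromosome strand the mean difference of median length was 2 bp, and the medians of the RNases did not separate. The mean overlap joins 2 directions that differ. Among PPS of replicate 3, the ssRNase share met in replicate 2 was the lower under every setting but thinning. It was 11.9% against 22.0% in the main setting and 22.9% against 35.1% with any peak. Chromosomes without overlap numbered 5 to 7, and no exact test could fall below 0.333. The difference of median scores, -0.605, was 0.305 with any peak of the RNase, 1.49 at scores at or above the list median, 0.522 with mean scores, 0 on every chromosome strand and -1.22 to 0.01 when each list was left out. Against control it went from -1.09 to 0.3, 1.02 and, on every strand, 0.005. Against control, leaving out each list gave -2.35 to 0.126 for the log2 ratio of numbers and -8.5 to 12.5 bp for length. Mean ssRNase and dsRNase overlap, 25.8% and 17.6%, were 40.9% and 32.2% with any peak, 11.8% and 3.64% thinned, 14.7% and 10.7% at 50% of both PPS, 31.9% and 26.2% within 100 bp and 15.8% and 11.7% on every strand. Their difference, 8.27 points, lay between 4.01 and 8.75. Windows called, 0 higher in ssRNase and 0 higher in dsRNase of 620, changed with the setting, and so did the number tested. They were 5 and 6 of 139 thinned, 4 and 19 of 311 at 16 or more PPS and 0 and 30 of 325 with the score filter. Of 620 windows they were 9 and 16 with the replicate block and 4 and 13 with the spread over 8 sets. They were 3 and 29 with pseudocount 0.1 and 0 and 4 with pseudocount 1, again of 620. Leaving out a set, with the lone set assumed to vary like the other pair, gave 0 to 42 and 33 to 190, the highest without ssRNase replicate 3. The block changed no other call. For number, length and score it could not, since it keeps the difference and the exact sign-flip p cannot fall below 0.5 with 2 lists. Keeping only PPS of 1 peak left every set unchanged, because every member is a single peak. For the 15 named windows, 188 of the 190 values under alternatives that could move the difference kept its direction; 6 other alternatives cannot move it. Chromosome 20 from 28000001 became -0.32 on every strand and chromosome 11 from 34600001 became 0.13 with the score filter. The cause was not tested. The spread over 8 sets, the fit without chromosome 17, pairs per 1000000, the share above the commonest score and the count of chromosomes without overlap were chosen after seeing the data. With 1043 ssRNase-only PPS in replicate 2, sparse windows limit what can be seen.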
